A study of Mus musculus with 12 samples.

Results

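HES and HEY proteins are transcriptional repressors of the basic helix-loop-helix class, and with the feedback genes Nrarp and Dtx1 they are among the genes most often used to read out Notch activity. The set described here holds 7 genes, Hey1, Hey2, Heyl, Hes1, Hes5, Nrarp and Dtx1, chosen by symbol as Notch readouts. All 7 were found, with 1 probe set each, among 25428 probe sets on 12 Affymetrix arrays. Liver sinusoidal endothelial cells were compared between 6 NICD-OE-HEC samples, from mice carrying Clec4g-Cre(tg/wt) and Rosa26-N1ICD-IRES-GFP, and 6 Control samples, whose genotype label is Ctrl. The Control genotype is not given in more detail in the sources used here, and neither are ages. Each sample was a pool of 3 mice, and CD146 beads selected its cells. The Cre is driven by Clec4g regulatory sequence, so recombination is directed to hepatic endothelium, and the transgene supplies the intracellular domain of Notch1 without ligand or receptor cleavage.

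When Notch is cleaved, its intracellular domain joins the DNA-binding protein RBPJ and Mastermind coactivators on target genes. HES and HEY genes are induced this way in many tissues, and their products bind DNA as dimers and recruit corepressors, also to their own promoters in the case of Hes1. In endothelium HEY factors are known for the arterial programme. Nrarp binds the RBPJ complex and limits it, and Dtx1 encodes a ubiquitin ligase that binds the intracellular domain. The comparison asks how far each of these readouts differs when the intracellular domain is overexpressed in these cells.

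RefSeq promoter windows of GRCm38.p6 were matched for 4 of the 7 genes, Hes5, Hey2, Nrarp and Dtx1, and the 250 bases before the transcript start that the table uses were read. For Hes5 and Dtx1 that start lies 297 and 198 bases inside the span RefSeq lists for the gene, so their windows may hold transcribed bases and are not printed. Those of Nrarp and Hey2 are printed to show where motif matches lie. All 4 windows were searched on both strands for TGGGAA, the core of the RBPJ motif, and for 3 motifs bound by HES and HEY proteins, namely CACGTG (an E-box), the C-site CACGCG and the N-box CACNAG, and no match overlapped another. Capitals mark the matches, each line running 5′ to 3′ along the strand of the gene. The windows are chr2:25180508-25180757 on the plus strand for Nrarp and chr10:30842784-30843033 on the minus strand for Hey2.
Nrarp: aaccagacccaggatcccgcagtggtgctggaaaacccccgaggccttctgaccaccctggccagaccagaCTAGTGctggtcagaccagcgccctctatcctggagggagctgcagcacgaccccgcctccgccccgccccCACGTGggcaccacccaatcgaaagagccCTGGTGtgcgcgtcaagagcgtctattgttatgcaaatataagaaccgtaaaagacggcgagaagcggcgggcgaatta
Hey2: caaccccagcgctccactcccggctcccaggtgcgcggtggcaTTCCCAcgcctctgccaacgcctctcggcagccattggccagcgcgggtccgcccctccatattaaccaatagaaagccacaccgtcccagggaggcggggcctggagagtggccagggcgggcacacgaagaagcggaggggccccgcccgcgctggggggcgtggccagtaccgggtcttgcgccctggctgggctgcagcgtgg

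The Hes5 window held 2 matches to TGGGAA, beginning 226 and 82 bases before the start used, and the Hey2 window held 1, beginning 207 bases before it. No match lay in the Nrarp or Dtx1 window, which says only that these letters are not in those bases. Of 32851 promoter windows of the same length in the table, 21.6% held at least 1 match to TGGGAA and 2.77% held 2 or more. The Nrarp window held 1 E-box, beginning 108 bases before the start, and 2 N-box matches, while Dtx1 held 1 C-site and 1 N-box match. The E-box was present in 6.02% of all windows, the C-site in 7.62% and the N-box in 36.7%. A match is a description of the sequence and no evidence of binding.

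The 12 arrays give log2 values made by the authors with RMA, and they have no detection calls. The median of each array was 3.67, and a value below it is treated here as not separable from background. For listed genes other than the 7, below or above the array median refers to the group mean. Cells of both groups carried endothelial transcripts. Cdh5, an endothelial cadherin, was 11.51 ± 0.11 in NICD-OE-HEC and 11.50 ± 0.09 in Control (SD, n = 6 each), and all 12 sinusoidal endothelial markers listed lay above the array median in both groups. Of those 12 markers, 10 fell and 1 rose in NICD-OE-HEC. Of 10 pan-endothelial markers, Cdh5 among them, 3 fell, 2 rose and 5 were not called. Notch1 itself was 8.87 ± 0.24 in NICD-OE-HEC and 8.68 ± 0.26 in Control (SD, n = 6 each) and was not called (limma adjusted p = 0.486), and whether its probe set reads the transgene is not known here. Two-sided tests used limma over all probe sets, with Benjamini-Hochberg adjustment, and a call means an adjusted p under 0.05. NICD-OE-HEC replicate 4 and Control replicate 2 stood apart on the second principal component. Without both arrays the same 4 of the 7 genes described below were called, and 4 of 93 other listed genes lost their call and 4 gained one.

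Of the 7 genes, 4 were called and all 4 rose in NICD-OE-HEC, namely Hey1, Nrarp, Hes1 and Heyl. Among all probe sets, 10.5% were called, 4.89% as higher and 5.59% as lower. By limma 0 of the 7 genes fell, and at an unadjusted p under 0.05 there were 5 higher, Hey2 with them, and 0 lower. The groups of arrays did not overlap for Hey1, Nrarp and Hes1, 3 of 7, against 6.68% of all probe sets, 2.98% as higher. Hey1 and Nrarp, 2 of 7, also had a log2 difference of at least 1, against 2.09% of all probe sets, 1.3% as higher.

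**Figure D1:**
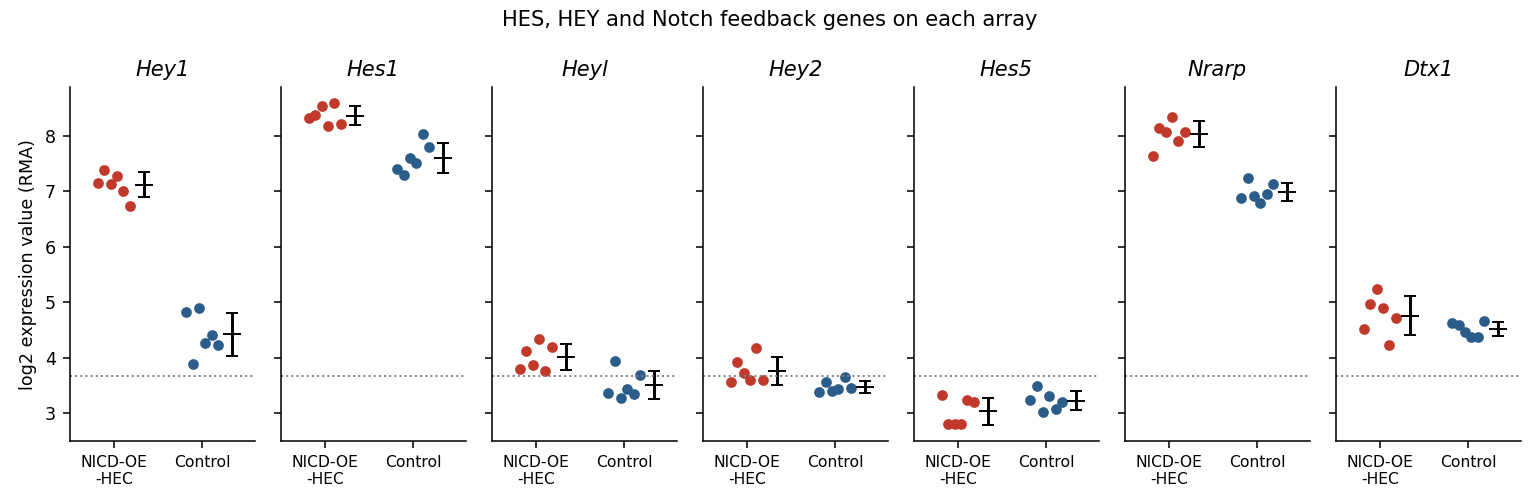
Log2 expression values (vertical axis) of the 7 genes on each array, NICD-OE-HEC left and Control right in each panel, with 1 point per array in replicate order and mean ± SD as bars (n = 6 each). The dotted line is the array median of 3.67. Hey1, Nrarp and Hes1 show no overlap between groups, and Hes5 lies below the line on all 12 arrays.

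Hey1, a HEY repressor prominent in arterial endothelium, had the largest difference of the 7. Its log2 values had a lowest of 6.74, a median of 7.14 and a highest of 7.39 in NICD-OE-HEC, against a lowest of 3.89, a median of 4.33 and a highest of 4.89 in Control. The lowest NICD-OE-HEC array stood 1.85 above the highest Control array, so the groups were separated by far more than their spread. NICD-OE-HEC exceeded Control by 2.70 on the log2 scale (SE 0.16, 95% interval 2.35 to 3.04, limma adjusted p = 4.15e-08), a 6.48-fold change on the linear scale. By size of the positive difference Hey1 ranked 27th among the 25428 probe sets. On Control replicate 2, which stood apart, Hey1 was at its lowest, and without that array and NICD-OE-HEC replicate 4 the log2 difference was 2.56.

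Heyl, the HEY member also known from vascular mural cells, rose by less and from a level near background. It had a lowest value of 3.76, a median of 3.99 and a highest of 4.33 in NICD-OE-HEC, against 3.28, 3.40 and 3.93 in Control. All 6 NICD-OE-HEC arrays lay above the array median and 2 of 6 Control arrays did. The groups overlapped, because Control replicate 2 (3.93) was above 3 of the NICD-OE-HEC arrays. Between the group means lay a log2 difference of 0.50 (SE 0.13, limma adjusted p = 0.0231). Its call was lost when NICD-OE-HEC replicate 2, 4 or 6 or Control replicate 3, 4 or 5 was left out, with differences of 0.44 to 0.59 over the 12 arrays left out in turn and adjusted p of up to 0.0613.

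Mural cell markers, like Heyl, were mostly higher in NICD-OE-HEC. Of 12 listed, 8 rose and 0 fell, against 4.89% and 5.59% of all probe sets. The list mean ran from 6.23 to 6.73 in NICD-OE-HEC and from 5.31 to 5.72 in Control, and Cspg4 lay below the array median in Control. Abcc9 (log2 difference 3.26) and Kcnj8 (2.99), subunits of a potassium channel, and Rgs5 (1.09) rose most. Cnn1 (0.11), Des (0.23), Cspg4 (0.16) and Pdgfrb (0.58, limma adjusted p = 0.0531) were not called. The list also includes Mcam, which encodes the selection antigen, and Notch3, counted below among Notch targets. With the mean of the list without Mcam as a covariate, Heyl differed by 0.17 (limma adjusted p = 0.956), and Hey1 by 3.34 (adjusted p = 0.0173). That mean does not overlap between the groups, and in this fit the SE of Hey1 was 3.01 times as large and 39 probe sets were called in all. In samples of many cells, a change in the number of cells of a type and a change in RNA per cell cannot be told apart.

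Hey2, a HEY repressor of arterial and cardiac development, was not called. Its log2 values had a lowest of 3.55, a median of 3.66 and a highest of 4.17 in NICD-OE-HEC, against 3.38, 3.44 and 3.65 in Control. The groups overlapped, 3 of 6 NICD-OE-HEC arrays lay above every Control array, and 0 of 6 Control arrays reached the array median. Its difference of 0.28 on the log2 scale missed the threshold (95% interval 0.05 to 0.52, limma adjusted p = 0.137). A two-sided exact permutation test of this gene alone gave p = 0.0173, without adjustment for the other probe sets.

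Among the HES genes, Hes1 rose and Hes5 gave no call. Hes1, a repressor expressed in many tissues, had a lowest value of 8.17, a median of 8.34 and a highest of 8.58 in NICD-OE-HEC, against 7.28, 7.55 and 8.03 in Control. The groups did not overlap, though the gap between them was 0.14, less than the SD of either group. The log2 difference was 0.76 (SE 0.13, 95% interval 0.49 to 1.03, limma adjusted p = 7.57e-04), 1.70-fold.

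The highest Hes1 values of each group were on NICD-OE-HEC replicate 5 (8.58) and Control replicate 5 (8.03). These were also the arrays with the highest mean of 14 early-response genes, a class that tissue digestion can switch on, at 9.02 on NICD-OE-HEC replicate 5 and 7.49 on Control replicate 5. Hey2 was highest on the same arrays (4.17 and 3.65). The lowest values did not coincide in either group. In NICD-OE-HEC Hes1 was lowest on replicate 4 (8.17, early-response mean 8.14), and that mean was lowest on replicate 1 (7.37, Hes1 8.31). In Control Hes1 was lowest on replicate 2 (7.28, early-response mean 6.42), and that mean was lowest on replicate 4 (6.17, Hes1 7.51). The correlation of Hes1 with that mean over arrays was not tested. That mean ran from 7.37 to 9.02 in NICD-OE-HEC and from 6.17 to 7.49 in Control, and 11 of the 14 genes rose, among them Egr1 (2.23) and Fos (1.95), while Egr2 and Egr3 were below the array median in Control. With this mean as a covariate the Hes1 difference was 0.36 (limma adjusted p = 0.515) and its call was lost. It was also lost with the mural marker mean as a covariate (0.40, adjusted p = 0.858). In the fit with the early-response mean Hey1 (2.72, adjusted p = 2.61e-04) and Nrarp (0.95, adjusted p = 0.0299) were called, and Heyl (0.65, adjusted p = 0.242) was not. In that fit the SE of Hey1 was 1.84 times as large, and 665 probe sets were called in all.

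Hes5, best known from neural progenitors, lay below the array median on all 12 arrays. It had a lowest value of 2.80, a median of 3.01 and a highest of 3.33 in NICD-OE-HEC, against 3.02, 3.21 and 3.49 in Control. The ranges overlapped, with 3 NICD-OE-HEC arrays below every Control array. NICD-OE-HEC minus Control came to -0.19 on the log2 scale (95% interval -0.45 to 0.07, limma adjusted p = 0.412), or -0.09 without the 2 arrays that stood apart, and at this level neither a change nor its absence can be shown.

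Nrarp, the feedback inhibitor, was the second largest riser. It had a lowest value of 7.64, a median of 8.06 and a highest of 8.33 in NICD-OE-HEC, against 6.78, 6.93 and 7.23 in Control. The lowest NICD-OE-HEC array, replicate 1, stood 0.41 above the highest Control array, replicate 2. The log2 difference was 1.04 (SE 0.12, 95% interval 0.79 to 1.29, limma adjusted p = 2.23e-05), 2.06-fold. It held its call with each of the 12 arrays left out in turn, with differences of 0.98 to 1.12, and lost it with the mural marker mean as a covariate (0.87, adjusted p = 0.521).

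Dtx1, the Deltex ubiquitin ligase, was not called although it lay above the array median on all 12 arrays. It had a lowest value of 4.24, a median of 4.80 and a highest of 5.23 in NICD-OE-HEC, against 4.38, 4.52 and 4.67 in Control. The NICD-OE-HEC arrays spread on both sides of Control, 4 above every Control array and 1, replicate 5, below every one. Their SD was 0.35, against 0.13 in Control. The log2 difference was 0.24 (95% interval -0.06 to 0.54, limma adjusted p = 0.365), so a rise of about the size seen for Heyl is within the interval. With the mural marker mean as a covariate it was 0.93 (SE 0.41, adjusted p = 0.537), and with the early-response mean 0.44 (adjusted p = 0.572).

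**Figure D2:**
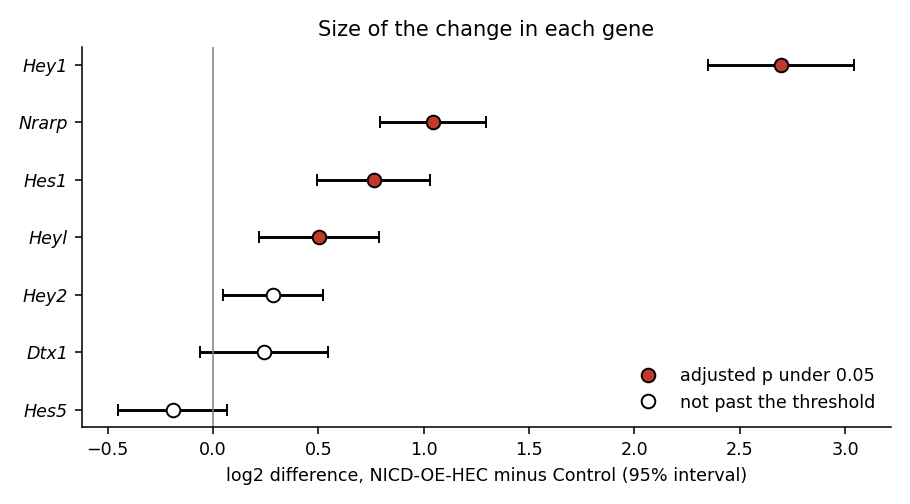
Log2 difference, NICD-OE-HEC minus Control, of each gene (horizontal axis) with its 95% interval from limma (6 arrays per group). Filled points passed an adjusted p of 0.05. Hey1 lies at 2.70 and the other 6 genes between -0.19 and 1.04.

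The 7 genes did not change by equal amounts. For each of the 21 pairs, the log2 value of one gene minus that of the other was taken on each array and compared between groups by an exact permutation test (two-sided, 924 assignments), with adjustment over the 21 pairs. In 15 pairs the changes were unequal, and 12 of these had the smallest p the test can give (0.00216, adjusted p = 0.00379). Hey1 changed more than each of the other 6 genes, by 1.65 on the log2 scale over Nrarp, 1.93 over Hes1, 2.19 over Heyl and 2.41 over Hey2, and these 4 pairs were among the 12. Of the 15 pairs without Hes5, which lay below the array median on every array, 10 were unequal and 9 of them had the smallest p. Nrarp changed more than Heyl (by 0.54, exact permutation adjusted p = 0.00379), whereas Nrarp over Hes1 (0.28, adjusted p = 0.207) and Hes1 over Heyl (0.26, adjusted p = 0.325) did not pass. Within the HEY genes, Heyl over Hey2 (0.22, exact permutation adjusted p = 0.311) did not pass either. Values near background are compressed on arrays, which bears on Hes5, Hey2 and Heyl, and its part in these differences was not tested.

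**Figure D3:**
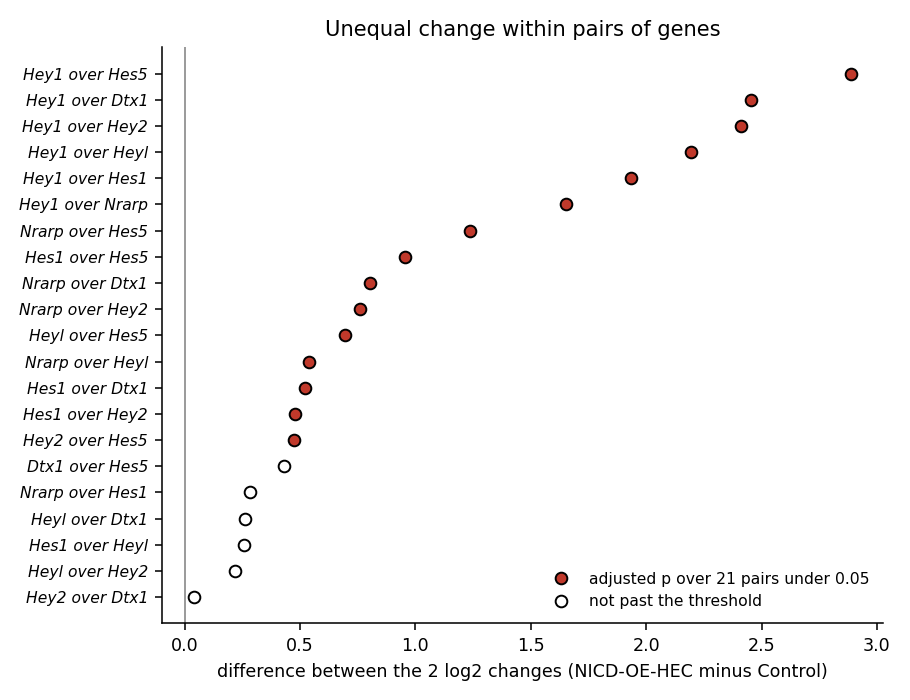
Difference between the log2 changes (NICD-OE-HEC minus Control) of the genes of each of the 21 pairs, the gene with the larger change named first, so all points lie at or above 0. Filled points passed the exact permutation test at an adjusted p of 0.05 over the pairs. The 6 pairs led by Hey1 take the highest positions, from 1.65 to 2.89.

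Among arrays of the same group, only Heyl and Nrarp passed a test of moving together, and only by one of its measures. Deviations from the group means over 12 arrays gave Pearson's r of 0.83 (permutation p = 8.3e-04, adjusted over 21 pairs p = 0.0174) and Spearman's rho of 0.75 (permutation p = 0.0112, adjusted p = 0.119). Within NICD-OE-HEC r was 0.82 and within Control 0.87. The 2 arrays farthest from the median Heyl deviation, NICD-OE-HEC replicate 4 and Control replicate 2, are the ones that stood apart, and r was 0.68 without them. Hes1 and Heyl, both called higher, deviated in opposite directions (r = -0.53, permutation p = 0.0994, rho = -0.59, permutation p = 0.0516, adjusted p = 0.375 for r and 0.200 for rho), which did not pass. For this pair r was -0.31 without the 2 arrays farthest from the median Hes1 deviation, and -0.18 without NICD-OE-HEC replicate 4 and Control replicate 2. Hes5 and Hey1 had a smaller p (r = -0.62, permutation p = 0.0209, adjusted p = 0.219). So did Hes1 and Hey2 (r = 0.52, permutation p = 0.0379, adjusted p = 0.265). So, narrowly, did Hes5 and Dtx1 (r = -0.59, permutation p = 0.0972, adjusted p = 0.375), and none of these passed. Nrarp and Dtx1 had the same rho as Heyl and Nrarp (0.75, permutation p = 0.0113, adjusted p = 0.119).

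Other transcripts on the arrays resembled the called genes. Over the 12 arrays and 11470 named probe sets brighter than the median, the values most like Hey1 were those of Slc45a4, Myof and Trappc5 (Pearson's r from 0.98 to 0.99), and those most like Nrarp were Prnp, Mgp and Cd63 (0.97 to 0.98). For Hes1 they were Vwf, Agrn and Scd2 (0.96 to 0.97) and for Heyl Trim44, Gbp3 and Matr3 (0.93 each). These values of r include the difference between the groups. They are the highest of 11470 and so are high by selection, and nothing is read from them.

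Of 7 measured relatives of the HES and HEY genes, 1 rose, Bhlhe40, and 0 fell. That count is near the 10.5% of all probe sets called, 4.89% as higher. The median log2 difference of these relatives was -0.0028, against -0.01 over all probe sets. Bhlhe40, a repressor induced by hypoxia and the circadian clock, was 8.49 ± 0.40 in NICD-OE-HEC and 6.97 ± 0.21 in Control (SD, n = 6 each), a log2 difference of 1.52 (SE 0.17, limma adjusted p = 1.78e-05). Hes3, Helt and Bhlhe41 lay below the array median in both groups. Among the 4 other Deltex genes Dtx3 rose (0.49, adjusted p = 0.0260) and 0 fell, a call lost without NICD-OE-HEC replicate 3, 4 or 5 or Control replicate 3 or 4. Without the 2 arrays that stood apart the Dtx3 difference was 0.43 (limma adjusted p = 0.0836).

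Partners through which HES and HEY proteins act moved singly. Among all probe sets 4.89% were called higher and 5.59% lower. Of 10 measured corepressors 1 rose and 1 fell (median -0.09). Tle3, a Groucho corepressor, was 7.50 ± 0.17 in NICD-OE-HEC and 6.80 ± 0.11 in Control (SD, n = 6 each; log2 difference 0.71, limma adjusted p = 1.17e-04). Its relative Tle4 fell by 0.39 (adjusted p = 0.0208), a call lost without NICD-OE-HEC replicate 2 or Control replicate 4, and without the 2 arrays that stood apart (-0.36, adjusted p = 0.0600). Of 9 bHLH and ID factors 2 rose and 1 fell (median 0.20). Id4, an inhibitor that binds bHLH proteins, fell to 5.42 ± 0.36 in NICD-OE-HEC, against 7.07 ± 0.13 in Control (SD, n = 6 each; log2 difference -1.64, adjusted p = 1.93e-06). Id2 rose by 0.49 and Tcf3, which encodes E proteins, by 0.37.

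Some upstream genes were called, beside 10.5% of all probe sets. Of 17 genes for RBPJ and the proteins that bind it, 0 rose and 2 fell (median -0.09), the acetyltransferase Kat2b (-0.48, limma adjusted p = 0.00130) and Rbpj (-0.46, adjusted p = 0.0415). The Rbpj call was lost without NICD-OE-HEC replicate 3, 4 or 5 or Control replicate 1, 2, 4 or 6, and without the 2 arrays that stood apart (-0.41, adjusted p = 0.0937). Of 10 genes that degrade or antagonise the intracellular domain, the ubiquitin ligases Nedd4l (0.61) and Nedd4 (0.32) rose and Numb, an endocytic inhibitor of Notch, fell (-0.79), with a median of -0.08. The Nedd4 call was lost without the 2 arrays that stood apart (0.28, adjusted p = 0.0546). Among the 4 receptors, Notch3 (0.59, adjusted p = 0.0329) and Notch4 (0.55, adjusted p = 0.00465) rose and 0 fell. The Notch3 call was lost without NICD-OE-HEC replicate 2 or 5 or Control replicate 1, 5 or 6.

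Other genes known as Notch targets rose more often than they fell, 6 and 1 of 12, with a median log2 difference of 0.53. Among all probe sets 4.89% were called higher and 5.59% lower. The 6 include Notch3, also counted among the receptors and the mural markers, whose call depended on single arrays. Myc (1.73), the ligand gene Jag1 (1.54) and Sox9 (1.12), a transcription factor also counted among cholangiocyte markers, had the largest rises, and Lfng, a modifier of Notch receptors, fell (-1.37). Genes that HES or HEY proteins repress in some tissue did not move one way, with 2 of 10 higher, 2 lower and a median of 0.08. Gata6, a transcription factor, was 5.69 ± 0.11 in NICD-OE-HEC and 4.62 ± 0.38 in Control (SD, n = 6 each; log2 difference 1.07, limma adjusted p = 1.69e-04), and the cell cycle inhibitor Cdkn1c rose by 0.71. Gata4, a factor of sinusoidal endothelium, fell by 0.65 and Kdr, a VEGF receptor, by 0.60. Gata4 is also 1 of the 12 sinusoidal markers, of which 10 fell. Kdr is also 1 of the 10 pan-endothelial markers, of which 3 fell. The bHLH genes Neurog3, Atoh1 and Ptf1a were below the array median in both groups.

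**Figure D4:**
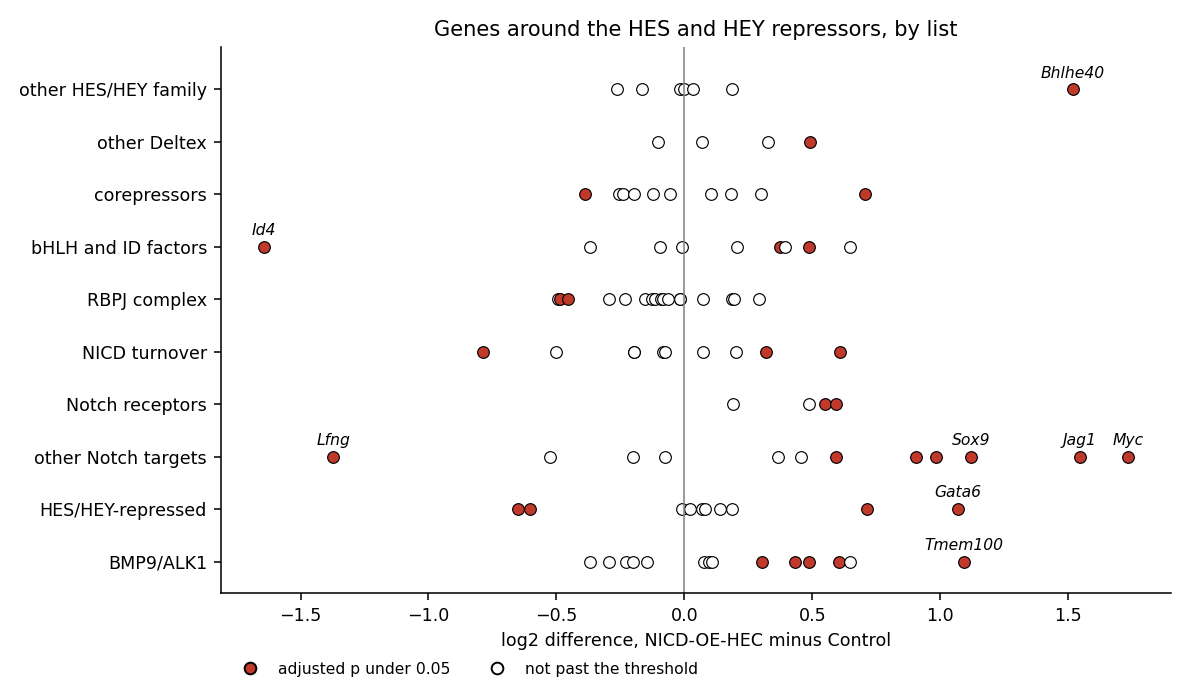
Log2 difference, NICD-OE-HEC minus Control (horizontal axis), of each gene in the 10 lists around the HES and HEY repressors, 1 point per gene and filled where the adjusted p was under 0.05. Names mark called genes with a difference beyond 1. Filled points lie on both sides of 0 in 5 of the lists, with Id4 (-1.64) and Lfng (-1.37) lowest and Myc (1.73) highest.

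Of further cell types, markers of neutrophils, hepatocytes and cholangiocytes were often called higher in NICD-OE-HEC, against 4.89% of all probe sets. Of 10 neutrophil markers 8 rose, with list means from 4.88 to 7.03 in NICD-OE-HEC and from 3.34 to 4.80 in Control, and Ly6g was below the array median in both groups. Of 11 hepatocyte markers 7 rose, with means from 7.15 to 8.62 in NICD-OE-HEC and 6.28 to 7.73 in Control. Of 8 cholangiocyte markers 6 rose, with means from 4.45 to 4.88 in NICD-OE-HEC and 3.83 to 4.14 in Control, and Cftr and Mmp7 were below the array median in both groups. Stellate cell markers gave 3 rises and 2 falls of 12 (means from 5.78 to 6.27 in NICD-OE-HEC and 5.04 to 6.27 in Control), and 0 of 10 Kupffer cell and 0 of 9 lymphocyte markers were called by limma. With the hepatocyte mean as a covariate Hey1 (2.58), Nrarp (1.15) and Hes1 were called and Heyl (0.51, limma adjusted p = 0.135) was not. The part of neutrophil, cholangiocyte, stellate, Kupffer and lymphocyte RNA in these results was not tested.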

How the data were processed

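Expression was measured on 12 Affymetrix arrays, 6 NICD-OE-HEC and 6 Control. The deposited table holds a log2 value for each probe set on each array, made by the authors with RMA, per the submitters' processing notes. No source used here names the RMA software, chip definition or genome build. All arrays have nearly the same quantiles, so that a shift of most genes in one direction would not show. Symbols came from the platform annotation, which gave 24705 of 25428 probe sets 1 symbol, and a symbol with several probe sets was read from the brightest.

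Differences were computed as NICD-OE-HEC minus Control in limma 3.58.1 under R 4.3.3 (functions lmFit and eBayes, 2 groups, no covariates, no filter), with Benjamini-Hochberg adjustment over all probe sets. SD is the spread between 6 arrays, and their number limits the precision. Correlation p-values came from 100000 permutations within groups. The limma step was tested on simulated data. The genes, lists, tests, alternatives and naming rule were chosen with earlier results of these data known. The rule names the 7 genes, up to 4 called genes by size in each list (the 2 largest where none was called) and the 3 most alike of each called gene. Of the genes it gives in the marker and early-response lists, only some are named here. Cdh5, Notch1, Id1, Id3, Acvrl1, Cnn1, Des, Pdgfrb and genes below the array median are named beyond the rule. Samples with the same replicate number were not taken as pairs, since the labels state no pairing. Deviations of same-numbered samples correlated at -0.105 to 0.219, and 3 of 6 such pairs were above 0.1. Of 6 NICD-OE-HEC arrays, 2 correlated best with the Control array of their own number. Arrays of the same group correlated at 0.976 to 0.992.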

Additional observations from a re-analysis of the deposited data

How the results depend on the processing

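Calls of Hey1, Nrarp, Hes1 and Heyl and the absence of calls for Hes5, Hey2 and Dtx1 held under median centring, a further quantile normalization, intensity trend with robust eBayes, array weights, a filter on the dimmest 25 or 50 percent (at 50 percent Hes5 and Hey2 were not tested), and without NICD-OE-HEC replicate 4 and Control replicate 2. The replicate block also kept 4 genes called and 2507 probe sets in all (Hey1 2.70, Nrarp 1.04, Hes1 0.76, Heyl 0.50), and it ended the calls of Tle4, Notch3 and Acvrl1, leaving 18 higher and 7 lower of 93 other listed genes, against 20 and 8 without it. Over single arrays left out, differences ran from 2.59 to 2.79 for Hey1, 0.98 to 1.12 for Nrarp, 0.70 to 0.85 for Hes1, 0.44 to 0.59 for Heyl, 0.20 to 0.32 for Hey2, 0.15 to 0.35 for Dtx1 and -0.25 to -0.14 for Hes5. In them 3 to 4 genes and 2107 to 2970 probe sets were called and 13 to 15 pairs changed unequally.

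Given the early-response covariate, Hes1 was 0.36 and Heyl 0.65 without calls, Hey2 turned to -0.033, and 2 of the 7 genes, 665 probe sets and 4 higher and 4 lower of 93 other listed genes were called. With the mural mean Hes1 was 0.40, Heyl 0.17 and Nrarp 0.87 without calls, Hey2 turned to -0.12, and 1 of the 7 genes, 39 probe sets and 0 of the other listed genes in either direction were called by limma. With the hepatocyte mean Heyl was 0.51 without a call and 1621 probe sets were called. The cause of these losses was not tested, and the covariates differ between the groups. With an added minimum log2 difference of 1, 2 of the 7 genes, 531 probe sets, and 6 higher and 2 lower of the other listed genes were called. The exact permutation test put Hey2 (0.28) past an unadjusted 0.05. Signal near background limits Hes5, Hey2 and Heyl.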

Other observations

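HEY and ID genes are also induced by BMP9 acting through ALK1 and SMAD proteins. Of 14 genes of that pathway 5 rose and 0 fell, with a median log2 difference of 0.10. Among all probe sets 4.89% were called higher and 5.59% lower. Tmem100, an endothelial gene downstream of ALK1, rose by 1.09 (limma adjusted p = 0.00293) but lay below the array median in both groups, at a mean of 3.36 in NICD-OE-HEC and 2.27 in Control. Bmper, a BMP regulator, rose by 0.60, Id2 by 0.49, the inhibitory Smad7 by 0.43 and Acvrl1 by 0.30. The Acvrl1 call was lost with the replicate block (limma adjusted p = 0.0511). Of the pathway's direct targets Id1 and Id3, neither was called, with log2 differences of 0.65 (adjusted p = 0.0648) and -0.37 (adjusted p = 0.143). Id1 and Id3 were named after their values were seen. Without the 2 arrays that stood apart Id1 was called (0.67, limma adjusted p = 0.0225) and Id3 was not (-0.30, adjusted p = 0.158). In the fit with the early-response covariate 0 of the 14 genes were called higher by limma, against 1 with the hepatocyte mean. In all, 665 and 1621 probe sets were called in these fits, against 2666 without a covariate, and the cause was not tested.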
